A study of Mus musculus with 12 samples.

Results

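The Siglec family examined here comprised 6 genes, Siglec1, Cd22, Cd33, Siglece, Siglecg and Siglech, which were listed by name and found through their Ensembl identifiers among the 36439 genes of the deposited count tables. RNA had been sequenced from macrophages of subcutaneous Lewis lung carcinoma, a tumour line passed between C57BL/6 mice, the strain used here. There were 12 libraries, 3 in each of 4 groups, all from macrophages selected for the surface antigen F4/80. F4/80+MRC1+ cells (MRC1+ tumour-associated macrophages, TAMs) were set against F4/80+CD11c+ cells (CD11c+ TAMs), and F4/80+ TAMs that overexpressed the microRNA miR-511-3p were set against F4/80+ TAMs that overexpressed a mutated form, miR-511-3p-mut. Both overexpression groups carried the prefix SFFV in their labels, which do not say what it stands for or which cells took up the construct. The labels number the libraries 1 to 3 in each group but do not say that each came from a separate mouse, so the p-values below reflect the scatter of these libraries alone, part or all of which may be technical.

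Siglecs are cell surface lectins of the immunoglobulin superfamily that bind sialic acids, the acidic sugars that cap many glycans of mammalian cells. Most carry cytoplasmic inhibitory motifs that recruit the phosphatases SHP-1 and SHP-2 once a Src family kinase has phosphorylated them, and others pair with the activating adaptor DAP12. On macrophages they are known as receptors for sialylated cells and particles, and tumour cells often carry dense sialic acid.

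Each library held between 10824918 and 27890433 reads counted to genes. Levels are given as CPM, read counts scaled to library size with TMM factors, and comparisons between genes as CPM per kilobase of exon. The macrophage genes Adgre1, which encodes F4/80, and Csf1r were abundant in every group, at 1115 and 945.6 CPM in MRC1+ TAMs, and at 641.4 and 1133 CPM in CD11c+ TAMs. The gate genes followed the labels: Mrc1 averaged 3777 CPM in MRC1+ TAMs and 1615 CPM in CD11c+ TAMs, and Itgax, which encodes CD11c, averaged 101.7 and 988.4 CPM in the same order of groups. Among 15622 genes tested with edgeR's quasi-likelihood test, 1080 were higher in MRC1+ than in CD11c+ TAMs at a Benjamini-Hochberg adjusted p under 0.05 and 1517 were lower. Fewer cells of a type and less RNA per cell cannot be told apart in such bulk libraries.

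Of the 6 Siglec genes, all of which were tested between the sorted groups, 1 was higher in MRC1+ TAMs, against 6.91% of all genes tested, and 2 were lower, against 9.71%. Siglec1 was the higher one, and Siglece and Siglecg were the lower ones. Cd22, Cd33 and Siglech did not pass the test. The median log2 fold change of the 6 genes was -0.44, beside 0.01 over all genes tested. The 3 MRC1+ libraries lay entirely above or entirely below the 3 CD11c+ libraries for 4 of the 6, which was also the case for 38.3% of all genes tested.

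**Figure D1:**
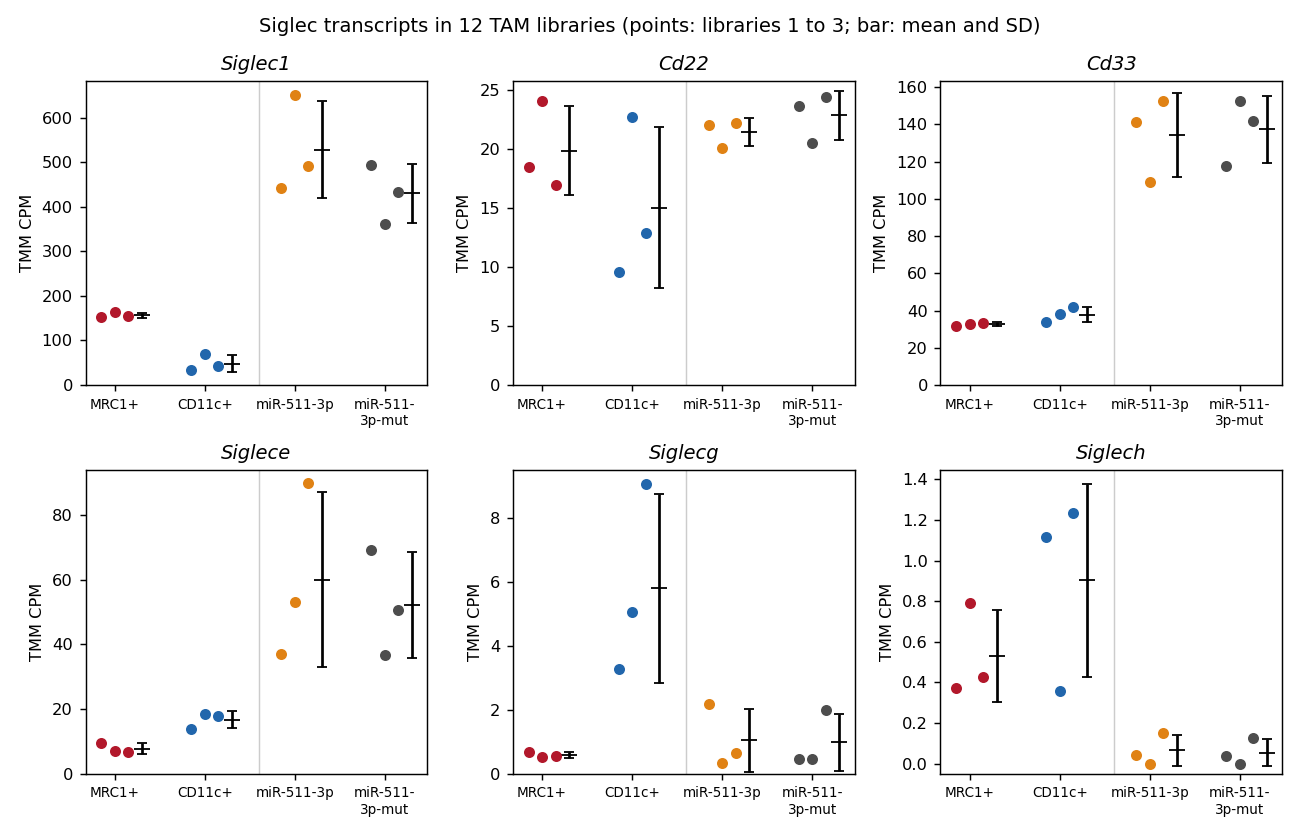
Level of each Siglec gene in the 12 libraries, in CPM on a linear axis that differs between panels. Points are libraries 1 to 3 from left to right, and the bar gives the mean and SD of each group of 3. Siglec1 lies between 152 and 163 CPM in MRC1+ TAMs, above all 3 CD11c+ libraries, whereas Siglecg lies below 1 CPM in MRC1+ TAMs and above 3 CPM in CD11c+ TAMs.

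Siglec1 encodes sialoadhesin (CD169), a long Siglec without inhibitory motifs that macrophages use to capture sialylated cells and particles. Its gene lies at chr2:131069220-131086765 on the minus strand (GRCm38). Siglec1 measured 152, 163 and 154 CPM in MRC1+ libraries 1 to 3, against 32.9, 69.8 and 41.99 CPM in CD11c+ libraries 1 to 3. The groups did not overlap, and the lowest MRC1+ library was above the highest CD11c+ library, which was library 2. The mean was 157 ± 5.55 CPM in MRC1+ TAMs and 48.2 ± 19.2 CPM in CD11c+ TAMs (SD, n = 3 each), a ratio of 3.25. The log2 fold change was 1.70 ± 0.24 (SE; 95% interval 1.14 to 2.25; edgeR adjusted p = 0.00272).

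Siglec1 is known as an interferon-induced gene, so a list of 14 interferon-stimulated genes was read beside it. Of the 14, 9 were lower in MRC1+ TAMs and 0 were higher, the opposite direction to Siglec1. Over all genes tested, 9.71% were lower and 6.91% higher. Their summed level ranged from 1105 to 1172 CPM in MRC1+ TAMs and from 1352 to 2007 CPM in CD11c+ TAMs. Oas3, an oligoadenylate synthetase, had a log2 fold change of -0.96 ± 0.15 (SE; adjusted p = 0.00412), and the antiviral GTPase gene Mx1 one of -1.09 ± 0.20 (adjusted p = 0.00944). The count of 9 depended on single libraries. It was between 3 and 5 without MRC1+ library 2, MRC1+ library 3, CD11c+ library 2 or CD11c+ library 3. It was 14 without CD11c+ library 1, whereas Siglec1 was called in each of these fits. The 14 genes summed to 1611, 1818 and 1765 CPM in miR-511-3p libraries 1 to 3. In miR-511-3p-mut libraries 1 to 3 they summed to 2134, 1232 and 1760 CPM. Within both overexpression groups this sum ranked the libraries in the same order as Siglec1. The order was the reverse in MRC1+ TAMs and differed in part in CD11c+ TAMs. The part of interferon in the level of Siglec1 was not tested.

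Siglece encodes an inhibitory Siglec of neutrophils, monocytes and macrophages, whose cytoplasmic motifs recruit SHP-1 and SHP-2. Siglece measured 9.57, 7.12 and 6.64 CPM in MRC1+ libraries 1 to 3, against 13.7, 18.4 and 17.9 CPM in CD11c+ libraries 1 to 3. All MRC1+ libraries were below all CD11c+ libraries. The mean was 7.78 ± 1.57 CPM in MRC1+ TAMs and 16.7 ± 2.58 CPM in CD11c+ TAMs (SD, n = 3 each). The log2 fold change was -1.10 ± 0.18 (SE; 95% interval -1.52 to -0.68; edgeR adjusted p = 0.00569), a level 2.14-fold lower in MRC1+ TAMs. Neutrophil marker genes, which this gene's known expression made relevant, summed to between 80.8 and 103.2 CPM in MRC1+ TAMs and between 92.7 and 158 CPM in CD11c+ TAMs, and their part in the level of Siglece was not tested. All 6 tested markers had a log2 fold change below 0, with a median of -0.62, and 1 of them, Csf3r, passed the test. Over all genes tested, 9.71% were called lower. Csf3r was at 21.1 CPM in MRC1+ TAMs and 32.5 CPM in CD11c+ TAMs. Ly6g, the untested member of the list, was at 0.11 CPM in MRC1+ TAMs and 0.08 CPM in CD11c+ TAMs.

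Siglecg encodes an inhibitory Siglec known from B cells, where it restrains B cell receptor signalling, and from dendritic cells and macrophages, where it binds the sialylated glycoprotein CD24. It rested on few reads: 11, 10 and 9 reads in MRC1+ libraries 1 to 3, against 56, 85 and 88 reads in CD11c+ libraries 1 to 3. Scaled, these were 0.68, 0.53 and 0.55 CPM in MRC1+ TAMs, against 3.28, 5.06 and 9.06 CPM in CD11c+ TAMs. The groups were far apart, and CD11c+ library 3 was the highest. The mean was 0.59 ± 0.08 CPM in MRC1+ TAMs and 5.80 ± 2.96 CPM in CD11c+ TAMs (SD, n = 3 each). Siglecg thus had a log2 fold change of -3.26 ± 0.43 (SE; 95% interval -4.24 to -2.27; edgeR adjusted p = 0.00185), a level 9.89-fold lower in MRC1+ TAMs.

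Markers of conventional dendritic cells, like Siglecg, were mostly lower in MRC1+ than in CD11c+ TAMs. Of 8 such genes, 7 were lower in MRC1+ TAMs (9.71% over all genes tested). Their sum ranged from 25.2 to 28.6 CPM in MRC1+ TAMs and from 152 to 231 CPM in CD11c+ TAMs. Among CD11c+ libraries both the sum and Siglecg were highest in library 3, but the sum was lowest in library 2 and Siglecg in library 1. Among miR-511-3p libraries Siglecg was highest in library 1, at 2.17 CPM, where the sum was lowest, at 16.4 CPM. Among miR-511-3p-mut libraries both were highest in library 3. Cd209a averaged 1.55 CPM in MRC1+ TAMs and 54.2 CPM in CD11c+ TAMs. The part of these cells in the level of Siglecg was not tested. Of 12 B cell markers, 8 were tested, 2 of which were lower in MRC1+ TAMs and 0 higher (9.71% and 6.91% over all genes tested). Of the 8, 5 had a log2 fold change above 0. The lower ones were Spib, at 0.66 CPM in MRC1+ TAMs and 2.34 CPM in CD11c+ TAMs, and Fcrla, at 0.67 CPM in MRC1+ TAMs and 1.70 CPM in CD11c+ TAMs. Summed, the 12 markers came to 12.1 to 14.6 CPM in MRC1+ TAMs and 11.7 to 15.4 CPM in CD11c+ TAMs. The largest part came from Cd79b, at 3.99 CPM in MRC1+ TAMs and 4.66 CPM in CD11c+ TAMs. The B cell genes Cd79a and Pax5 averaged 0.33 and 0.39 CPM in MRC1+ TAMs, on 17 and 20 reads. In CD11c+ TAMs they averaged 0.24 and 0.16 CPM, on 10 and 8 reads. The part of B cells in the level of Siglecg was not tested either.

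Cd22 encodes the best known inhibitory Siglec of B cells. It measured 18.5, 24.1 and 16.9 CPM in MRC1+ libraries 1 to 3, against 9.56, 22.7 and 12.9 CPM in CD11c+ libraries 1 to 3. The groups overlapped through CD11c+ library 2, which was above MRC1+ libraries 1 and 3, and MRC1+ was the higher in each same-numbered pair. Its log2 fold change was 0.39 ± 0.30 (SE; 95% interval -0.29 to 1.07; edgeR adjusted p = 0.390), and without CD11c+ library 2 it was 0.84 (adjusted p = 0.0507). The summed level of T and NK cell markers was also highest in library 2 of both sorted groups, most of it from Cd4. It was 68.1, 135 and 84.2 CPM in MRC1+ TAMs, against 28.96, 110 and 34.3 CPM in CD11c+ TAMs. The other markers did not all share this pattern: Ncr1 was also highest in library 2 of both groups, whereas Lck was lowest there. Of the 8 markers tested, 2 were lower in MRC1+ TAMs and 0 were higher (9.71% and 6.91% over all genes tested). The part of these cells in the level of Cd22 was not tested. Of the 32-base stretches of Cd22 transcripts, 10.6% also occur in other genes, so some of its reads may have been split or lost in counting.

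Cd33 encodes a myeloid Siglec. It measured 31.6, 32.8 and 33.6 CPM in MRC1+ libraries 1 to 3, against 33.7, 37.9 and 41.8 CPM in CD11c+ libraries 1 to 3. The groups did not overlap, but the highest MRC1+ and lowest CD11c+ libraries were nearly equal. The log2 fold change was -0.21 ± 0.10 (SE; 95% interval -0.44 to 0.03; edgeR adjusted p = 0.193). Without CD11c+ library 1 it was -0.29 and passed the test (adjusted p = 0.0456).

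Siglech encodes a Siglec of plasmacytoid dendritic cells that signals through DAP12. It was close to the detection limit, with 6, 15 and 7 reads in MRC1+ libraries 1 to 3, against 19, 6 and 12 reads in CD11c+ libraries 1 to 3. Siglech had a log2 fold change of -0.67 ± 0.51 (SE; 95% interval -1.85 to 0.50; edgeR adjusted p = 0.397), and the groups overlapped. Of 10 genes that mark plasmacytoid dendritic cells, 6 were tested, of which 1 was higher in MRC1+ TAMs and 1 was lower. Over all genes tested, 6.91% were higher and 9.71% lower. The higher one was Tcf4, at 214 CPM in MRC1+ TAMs and 148 CPM in CD11c+ TAMs. The lower one was Irf8, at 135 CPM in MRC1+ TAMs and 214 CPM in CD11c+ TAMs. The 10 genes summed to between 447 and 472 CPM in MRC1+ TAMs and between 465 and 491 CPM in CD11c+ TAMs. Most of this sum came from Tcf4, Irf8 and Bst2, the last at 98.8 CPM in MRC1+ TAMs and 101 CPM in CD11c+ TAMs. The part of these cells in the level of Siglech was not tested. Ly6d and Klk1 averaged 0.04 and 0.02 CPM in MRC1+ TAMs, and 0.24 and 0.07 CPM in CD11c+ TAMs. They rested on 2 and 1 reads in MRC1+ TAMs, and on 10 and 3 reads in CD11c+ TAMs. Ccr9, Pacsin1 and Runx2 were also lower on average in MRC1+ TAMs. Cox6a2 and Cd209d went the other way, at 0.38 and 2.14 CPM in MRC1+ TAMs, and 0.25 and 2.07 CPM in CD11c+ TAMs.

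**Figure D2:**
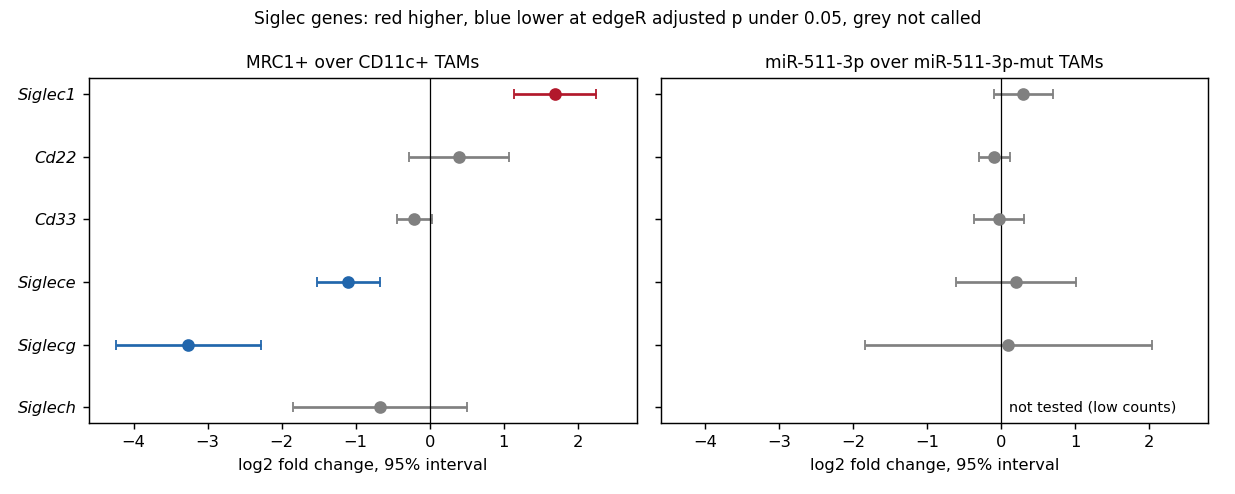
Log2 fold change of each Siglec gene with its 95% interval, for MRC1+ over CD11c+ TAMs on the left and for miR-511-3p over miR-511-3p-mut TAMs on the right. Red and blue points passed the edgeR test as higher or lower, and grey points did not. Siglec1 stands at 1.70 and Siglecg at -3.26 on the left, whereas every interval on the right includes 0.

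The remaining mouse Siglec genes in the tables were low. Siglecf, known from eosinophils and alveolar macrophages, averaged 0.24 CPM in MRC1+ TAMs and 1.15 CPM in CD11c+ TAMs and did not reach the count needed for testing. Mag, the myelin Siglec, had a log2 fold change of -0.36 ± 0.20 (SE; edgeR adjusted p = 0.252), with 5.52 CPM in MRC1+ TAMs and 7.07 CPM in CD11c+ TAMs. Siglec15, known from osteoclasts, had one of -0.61 ± 0.34 (adjusted p = 0.248), with 1.24 CPM in MRC1+ TAMs and 1.95 CPM in CD11c+ TAMs.

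Per kilobase of exon, the make-up of the family differed between the sorted groups. Siglec1 took 63.5 ± 1.70% of the summed level of the 6 genes in MRC1+ TAMs and 26.3 ± 5.16% in CD11c+ TAMs (SD, n = 3 each). Siglece took 12.2 ± 2.45% in MRC1+ TAMs and 36.3 ± 3.01% in CD11c+ TAMs. The sum itself was 34.5 ± 1.43 CPM per kilobase in MRC1+ TAMs and 25.1 ± 5.52 in CD11c+ TAMs. In MRC1+ TAMs Siglec1 ranked first at 21.9 CPM per kilobase, followed by Siglece, Cd33 and Cd22 at 4.207, 4.205 and 3.93, whose libraries overlapped, and by Siglech and Siglecg at 0.16 and 0.12. In CD11c+ TAMs Siglece ranked first at 9.02, followed by Siglec1 at 6.75, Cd33 at 4.87 and Cd22 at 2.98, each overlapping the next. Siglecg at 1.21 and Siglech at 0.27 came last. Per kilobase of the longest coding transcript, the order in CD11c+ TAMs was the same. In MRC1+ TAMs, Cd33 at 5.70 and Cd22 at 4.99 then came before Siglece at 4.21.

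**Figure D3:**
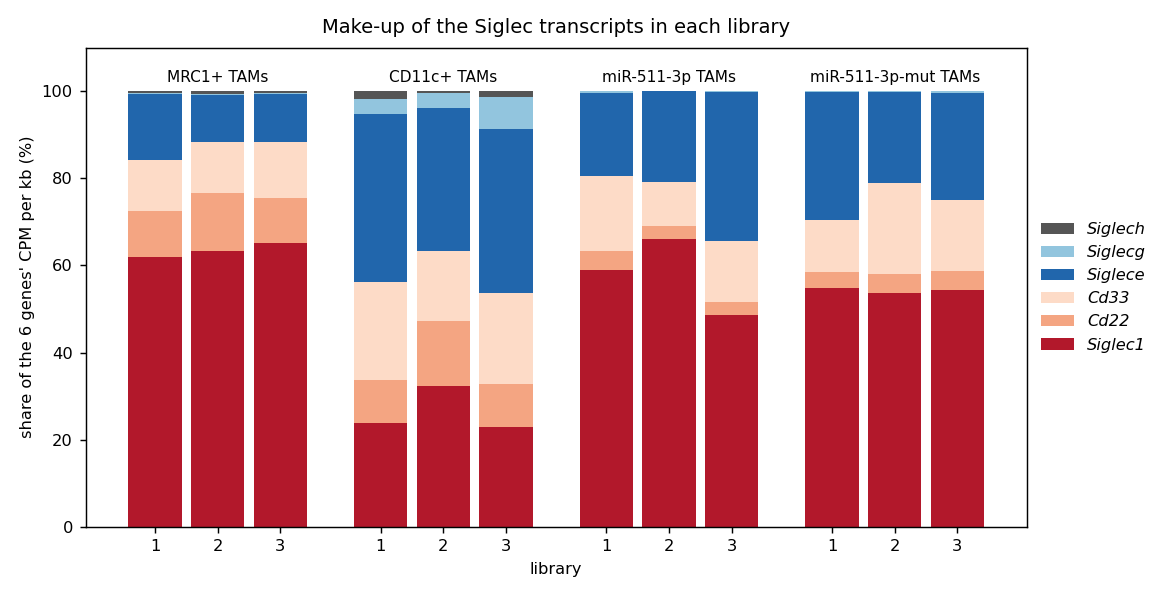
Share of each Siglec gene in the summed CPM per kilobase of the 6 genes, in percent, for each of the 12 libraries. Siglec1 makes up 61.8% to 65.2% in the MRC1+ libraries and 22.8% to 32.3% in the CD11c+ libraries.

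The proteins through which Siglecs signal were next examined. Of 7 such genes, 4 were lower in MRC1+ TAMs and 0 were higher, and the counts of this and the following lists stand beside 9.71% lower and 6.91% higher over all genes tested. Ptpn6, which encodes SHP-1, averaged 293 ± 26.04 CPM in MRC1+ TAMs and 469 ± 63.7 CPM in CD11c+ TAMs (log2 fold change -0.68 ± 0.12 SE; edgeR adjusted p = 0.00861). The kinase genes Syk and Lyn had log2 fold changes of -0.70 ± 0.15 and -0.49 ± 0.11 (adjusted p = 0.0149 and 0.0226), and Tyrobp, which encodes DAP12, one of -0.51 ± 0.14 (adjusted p = 0.0438). Only Ptpn6 among these 4 was called whichever library was left out. Tyrobp missed the threshold with the replicate number as a block (adjusted p = 0.0573), and Lyn did so when libraries were scaled by their totals alone (adjusted p = 0.0635).

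Sialic acid is made in the cytosol, activated in the nucleus and carried into the Golgi apparatus. Of 5 tested genes of this route, 1 was higher in MRC1+ TAMs and 0 were lower. This was Cmah, whose enzyme converts N-acetylneuraminic acid into its glycolyl form, at 4.48, 3.11 and 3.11 CPM in MRC1+ libraries 1 to 3, against 1.35, 0.77 and 1.03 CPM in CD11c+ libraries 1 to 3 (log2 fold change 1.75 ± 0.29 SE; edgeR adjusted p = 0.00518). Slc35a1, the Golgi transporter of activated sialic acid, did not pass, at 28.5 CPM in MRC1+ TAMs and 24.8 CPM in CD11c+ TAMs. Nor did Nans at 65.1 and 71.4 CPM or Cmas at 47.9 and 50.4 CPM in the same order of groups.

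Sialyltransferases attach sialic acid to glycans in the linkages that Siglecs distinguish. Of 13 tested, 1 was higher in MRC1+ TAMs and 5 were lower. St3gal5, the synthase of the ganglioside GM3, measured 3.17, 3.16 and 3.29 CPM in MRC1+ libraries 1 to 3, against 10.9, 10.5 and 13.1 CPM in CD11c+ libraries 1 to 3 (log2 fold change -1.83 ± 0.15 SE; edgeR adjusted p = 0.000245). St8sia4, a polysialyltransferase, averaged 183 ± 4.998 CPM in MRC1+ TAMs and 398 ± 46.3 CPM in CD11c+ TAMs (log2 fold change -1.12 ± 0.11; adjusted p = 0.000377). St3gal4 and St8sia6 had log2 fold changes of -0.95 ± 0.12 and -1.56 ± 0.25 (adjusted p = 0.00136 and 0.00471). The other two calls were named after their values were seen: St8sia1, the synthase of the ganglioside GD3, was lower (log2 fold change -1.59; adjusted p = 0.00943), a call lost with all 12 libraries in 1 fit (adjusted p = 0.0510), and St3gal2 was higher (0.57; adjusted p = 0.0345), a call lost without MRC1+ library 2 or 3 or CD11c+ library 2 or 3. St6gal1, also chosen after its values were seen because it makes the linkage that Cd22 prefers, was at 103.03 CPM in MRC1+ TAMs and 101.8 CPM in CD11c+ TAMs and did not pass the test.

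Among 6 tested genes for the removal and breakdown of sialic acid, 2 were higher in MRC1+ TAMs and 0 were lower. Npl, the lyase that splits free sialic acid, measured 97.1, 87.6 and 96.5 CPM in MRC1+ libraries 1 to 3, against 9.15, 20.7 and 10.7 CPM in CD11c+ libraries 1 to 3. Its groups were far apart, with a log2 fold change of 2.78 ± 0.27 (SE; edgeR adjusted p = 0.000441) and a ratio of means of 6.93. Slc17a5, the exporter of sialic acid from lysosomes, averaged 40.4 ± 1.54 CPM in MRC1+ TAMs and 26.9 ± 1.97 CPM in CD11c+ TAMs (log2 fold change 0.59 ± 0.09; adjusted p = 0.00443). Siae and Neu3 did not pass the test.

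Of the tested genes for proteins known to carry Siglec ligands, all 3 were lower in MRC1+ TAMs. Cd24a, whose product binds Siglec-G, measured 8.70, 4.01 and 7.07 CPM in MRC1+ libraries 1 to 3, against 37.3, 30.6 and 52.5 CPM in CD11c+ libraries 1 to 3 (log2 fold change -2.61 ± 0.29 SE; edgeR adjusted p = 0.000908). Receptor and ligand transcripts were both lower in MRC1+ TAMs for this pair. Spn (CD43) averaged 95.1 CPM in MRC1+ TAMs and 194 CPM in CD11c+ TAMs (log2 fold change -1.03 ± 0.12; adjusted p = 0.000899), and Selplg (PSGL-1) 53.7 and 121 CPM in the same order of groups (-1.17 ± 0.15; adjusted p = 0.00160). Over these pathway lists and the remaining Siglecs together, 36 were tested, 4 were higher in MRC1+ TAMs (6.91% over all genes) and 12 were lower (9.71% over all genes), and their median log2 fold change was -0.18, beside 0.01 over all genes tested.

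**Figure D4:**
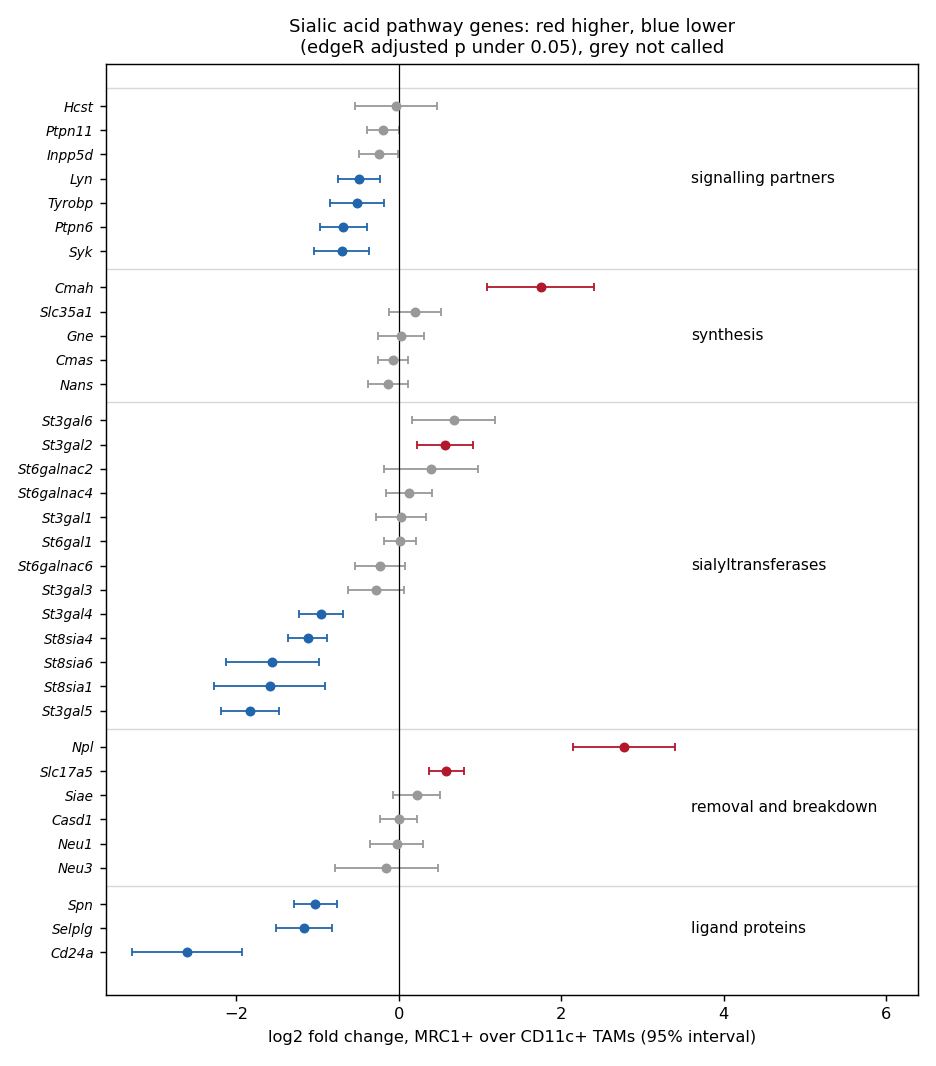
Log2 fold change of MRC1+ over CD11c+ TAMs with its 95% interval for each tested gene of Siglec signalling, sialic acid synthesis, transfer, removal and ligand proteins. Red points were higher and blue points lower by the edgeR test, and grey points did not pass. Npl, at 2.78, is farthest to the right and Cd24a, at -2.61, farthest to the left.

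Genes whose levels varied most like each Siglec over the 12 libraries were found by Pearson's r among 11057 genes, after the means of the sorted and of the overexpression libraries were removed. For Siglec1 these were the chemokine gene Ccl8 (r = 0.981), Ehd4 (0.978) and Cd300ld4 (0.970). Their r with Siglec1 in the overexpression libraries alone was lower, at 0.691, 0.768 and 0.863 in the same order. For Siglece they were Entpd6 (0.955), Clec4b1 (0.950) and Limd2 (0.943), and for Siglecg Gpcpd1 (0.971), Chuk (0.958) and its ligand gene Cd24a (0.949). For Cd22 they were Ciz1, Pld2 and Ppp1r3e, with r between 0.904 and 0.941. In the overexpression libraries alone, their r with Cd22 was 0.868, 0.246 and 0.496 in the same order. For Cd33 they were Gm3362, Gm16238 and Ptms, with r between 0.838 and 0.870. Each r shares the difference between the sorted groups, so it describes these libraries and carries no test.

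**Figure D5:**
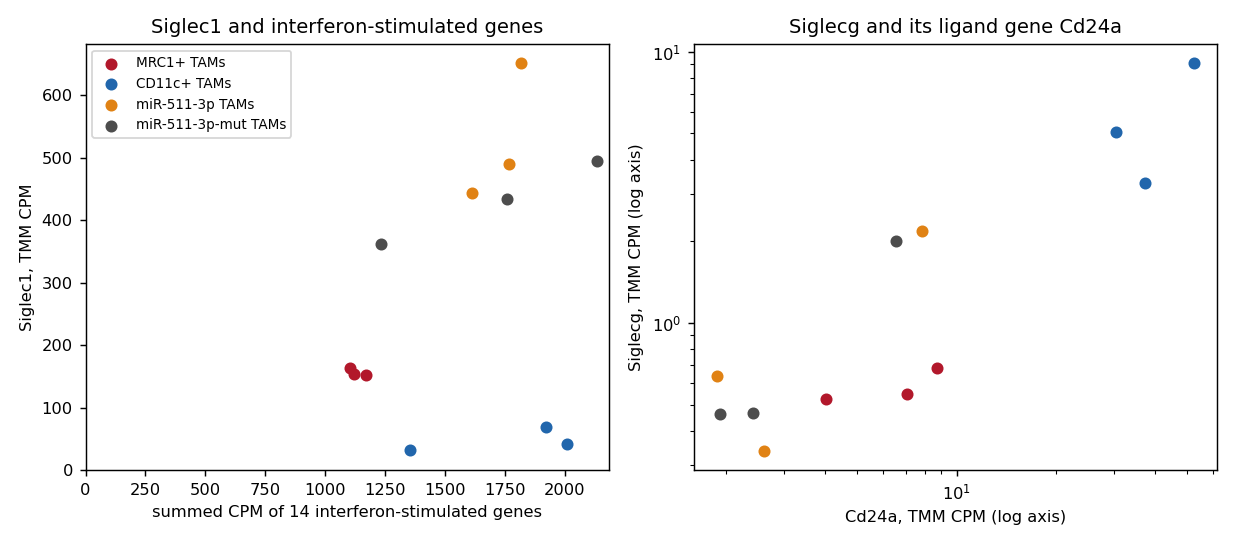
Left, Siglec1 against the summed CPM of 14 interferon-stimulated genes in each library, on linear axes. Right, Siglecg against Cd24a in CPM, on log axes. The MRC1+ libraries have more Siglec1 and a smaller interferon sum than the CD11c+ libraries. Within each overexpression group, Siglec1 and the interferon sum rank the libraries in the same order. The CD11c+ libraries have the highest values of both Siglecg and Cd24a.

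Promoter sequences were examined for every member for which one was available. RefSeq windows (GRCm38.p6) from 250 bases before to 50 bases after the start were matched for Cd22, Cd33, Siglece, Siglecg and Siglech, with 6 windows in all, and not for Siglec1. The hexamer GAGGAA, the core of the PU box bound by the myeloid factor PU.1, was searched on both strands. It replaced a longer motif that had no match, so its matches describe these windows and carry no test. Windows of Cd33, Siglece, Siglecg and Siglech held it, for Siglecg in 1 of its 2 windows. Counted by window and not by gene, it occurred in 28.3% of all 32851 windows. The interferon-stimulated response element, the octamer ATGCAAAT, the AP-1 motif TGACTCA, the TATA box TATAAA and the NF-kappaB motif had no match in a window of these 5 genes, and occur in 3.44%, 1.74%, 5.20%, 13.6% and 1.63% of all windows. The windows of the lower genes are shown with GAGGAA or its complement TTCCTC in capitals, that of Siglece at chr7:43660112-43660411 on the minus strand and that of Siglecg with a match at chr7:43407989-43408288 on the plus strand.
Siglece: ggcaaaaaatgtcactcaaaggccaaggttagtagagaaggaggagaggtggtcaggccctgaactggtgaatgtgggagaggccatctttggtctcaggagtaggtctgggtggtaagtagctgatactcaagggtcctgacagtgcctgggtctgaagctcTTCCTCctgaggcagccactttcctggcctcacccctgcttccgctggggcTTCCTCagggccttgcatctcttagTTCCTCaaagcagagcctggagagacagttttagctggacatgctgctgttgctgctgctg
Siglecg: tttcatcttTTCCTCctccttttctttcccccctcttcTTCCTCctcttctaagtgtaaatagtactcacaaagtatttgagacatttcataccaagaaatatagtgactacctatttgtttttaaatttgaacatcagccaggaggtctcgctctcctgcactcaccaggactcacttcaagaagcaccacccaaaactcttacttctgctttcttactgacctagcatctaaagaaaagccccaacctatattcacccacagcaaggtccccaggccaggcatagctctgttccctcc

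In the overexpression experiment, the microRNA's seed, its bases 2 to 8, is shown in capitals (RefSeq, GRCm38.p6, chr2:14261051-14261072, plus strand).
miR-511-3p: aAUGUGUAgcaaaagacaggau
Among the 6 Siglec genes, 3′ UTR matches to this seed occurred in Cd33 alone, with 1 match to bases 2 to 8 and 3 matches to bases 2 to 7 followed by A. Any such match was present in 19.5% of 20938 genes. The 3′ UTR of Cd33 was the longest of the family, at 4646 bases, against 281 to 1359 bases in the other members. The match to bases 2 to 8 is shown with the paired bases in capitals.
Cd33: atggatgaataTACACATgtgtgtgccaa

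None of the 5 Siglec genes tested between the overexpression groups passed, and the background was the same, with 0% of 14054 genes called. Of all genes, 343 had an unadjusted p under 0.05, and DESeq2 called 1. Cd33 measured 141, 109 and 153 CPM in miR-511-3p libraries 1 to 3, against 117, 153 and 142 CPM in miR-511-3p-mut libraries 1 to 3. The groups overlapped, and the log2 fold change was -0.03 (95% interval -0.37 to 0.31; edgeR adjusted p = 0.9999).

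Siglec1 measured 443, 651 and 490 CPM in miR-511-3p libraries 1 to 3, against 495, 362 and 434 CPM in miR-511-3p-mut libraries 1 to 3, and the groups overlapped. Its log2 fold change was 0.30 (95% interval -0.10 to 0.69). Siglece measured 37.0, 53.2 and 89.8 CPM in miR-511-3p TAMs, against 69.2, 36.8 and 50.5 CPM in miR-511-3p-mut TAMs, with a log2 fold change of 0.20 (95% interval -0.61 to 1.01). The values of Cd22 lay between 20.1 and 22.2 CPM in miR-511-3p TAMs and between 20.5 and 24.4 CPM in miR-511-3p-mut TAMs (log2 fold change -0.09, 95% interval -0.30 to 0.12). Siglecg was at or below 2.17 CPM in every library of both groups and its interval was wide, from -1.84 to 2.03. Siglech had 1, 0 and 4 reads in miR-511-3p TAMs and 1, 0 and 3 reads in miR-511-3p-mut TAMs and was not tested. For no Siglec gene tested were the groups free of overlap, which was the case for 6.38% of all genes. The level of the mature microRNA was not analysed here.

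The order of the levels per kilobase was the same in both overexpression groups: Siglec1, Siglece, Cd33, Cd22, Siglecg and Siglech. Siglec1 stood at 74.0 ± 15.3 CPM per kilobase in miR-511-3p TAMs and at 60.2 ± 9.28 in miR-511-3p-mut TAMs (SD, n = 3 each). Their family sums, 128 ± 20.1 and 111 ± 16.1 CPM per kilobase in the same order of groups, stand beside the 34.5 and 25.1 of the MRC1+ and CD11c+ TAMs. The sorted and overexpression libraries were separate experiments, so these levels are given with no test.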

How the data were processed

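The authors deposited 1 table of whole-number read counts per Ensembl gene for each of 12 libraries, not normalized. Bowtie, TopHat 1.2.0, SAMtools 0.1.12a, HTSeq and the build mm9 (NCBIM37) are named, per the submitters' processing notes. Strand use and counting mode: not given in the sources used here. Reads of Cd22 and of an antisense gene over its exons cannot be told apart. The 5 summary entries that name no gene were left out. Of them, reads over no gene came to 19.7% to 26.6% of the sorted libraries and 7.64% to 10.4% of the overexpression libraries.

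Each comparison was fitted on its 6 libraries with edgeR 4.0.16 in R 4.3.3 (TMM factors, filterByExpr, quasi-likelihood test, Benjamini-Hochberg adjustment over all genes tested, threshold 0.05). SE was the log2 fold change divided by the root of F. Gene symbols, exon lengths, UTRs and gene positions came from the GENCODE M21 annotation (GRCm38), whereas the reads were counted on mm9. The members and gene lists were chosen with earlier results of these data known. All members and other Siglecs were named, with up to 4 genes of lowest p per pathway list and the 3 genes most alike per member; the promoter motif GAGGAA replaced a longer one that had no match.

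Same-numbered libraries tended to deviate together, with correlations of 0.104, 0.337 and 0.250 in the sorted and 0.147, 0.258 and 0.462 in the overexpression groups. Between different numbers they were -0.385 to 0.166. The highest of these, between miR-511-3p library 1 and miR-511-3p-mut library 2, was above the 0.147 of the libraries numbered 1. The replicate number was therefore fitted as a block as an alternative. Other alternatives were library total or upper-quartile scaling, DESeq2 1.42.0, no filter, a filter of 5 CPM in 3 libraries, all 12 libraries in 1 fit and leaving out each library. The fits were tested on simulated data.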

Additional observations from a re-analysis of the deposited data

How the results depend on the processing

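Siglec1 and Siglece kept their direction and passed the threshold in each alternative for MRC1+ against CD11c+ TAMs, and Siglecg in each that tested it; the filter of 5 CPM left Siglecg out, so 2 members were called there. The log2 fold change of Siglec1 ranged from 1.47 to 2.07. Leaving out a library gave 3 to 4 called members, 4 without CD11c+ library 1, and 1270 to 4707 called genes, beside 2597 with every library. With the replicate number as a block, 3 members were called between the sorted groups and 0 between the overexpression groups. Between the overexpression groups, 1 gene was called by DESeq2, 1 with all 12 libraries in 1 fit and 1 with the replicate block. Scaled by library totals alone, Siglec1 averaged 164 CPM and Cd33 34.1 CPM in MRC1+ TAMs. Siglecf, untested in the main comparison, was called lower in MRC1+ TAMs with no filter (adjusted p = 0.0141) and without CD11c+ library 2 (0.0233), and not in the other 4 fits that tested it. Of 2567 gene values under alternatives, over the members and every list, 2448 kept direction and side of the threshold, 84 lost a call, 33 gained one and 2 reversed. The reversals were mast cell markers without CD11c+ library 1: Mcpt4 at 0.74 and Cpa3 at 1.02 on the log2 scale, beside -0.02 and -0.06 with every library and lowest values of -0.36 and -0.40 without CD11c+ library 2. Low depth limits Siglecg and Siglech most, with 30 and 28 reads in MRC1+ TAMs.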
